A study of Mus musculus with 75 samples.

Results

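Chromatin at 2 genes, Bdnf and Ntrk2, was described in sorted mouse hypothalamic nuclei. Bdnf encodes brain-derived neurotrophic factor, a secreted neurotrophin, and Ntrk2 encodes TrkB, the receptor tyrosine kinase to which it binds. The members were all rows of the H3K27ac and ATAC region tables that overlapped 1 of 2 mm9 windows, chr2:109490000-109590000 for Bdnf and chr13:58880000-59260000 for Ntrk2. There were 67 such regions of 175002 in both tables. Bdnf had 5 H3K27ac regions and 4 ATAC regions, and Ntrk2 had 39 and 19. The windows are set by position and use no signal value.

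BDNF binding makes TrkB dimerise and phosphorylate itself, which activates MAPK, PI3K-AKT and phospholipase C gamma signalling. In the hypothalamus the pair is known for restraining food intake, and reduced function of either gene causes overeating and obesity in mice and humans. Bdnf is transcribed from several alternative promoters spread along its 5′ part, each joined to the same coding exon. H3K27ac, acetylation of lysine 27 of histone H3, marks active promoters and enhancers, and ATAC-seq reads how open the chromatin is to a transposase.

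All groups were LepRcre/+; SUN1-sfGFP/+ mice, in which Cre made under the leptin receptor gene switches on a GFP-tagged nuclear membrane protein. GFP-positive nuclei are therefore those of cells in which the leptin receptor driver is, or once was, active, and GFP-negative nuclei are all others from the same tissue. Treatment lasted 36 hours and had 4 arms. Fed mice ate freely and their labels name saline. Fast mice were fasted and injected with saline 12, 24 and 34 hours after fasting began. Lep24 mice were fasted and received leptin at 5 mg/kg at all 3 of those times. Lep2 mice, also fasted, were injected at the same 3 times and received the same dose of leptin at 34 hours. Titles carry the code SSS for Fed and Fast, SSL for Lep2 and LLL for Lep24. Animals were grown for at least 2 months before treatment, hypothalami were pooled, and the number and sex of the mice behind each library are not given here. Each of the 8 groups of treatment and sort had 2 libraries per assay, 16 libraries per assay of the series' 75 samples. The labels do not say whether the 2 libraries of a group are from different pools. Their spread, which is all that p-values measure here, may be technical. The sorted cell type was not checked against marker genes, because the region tables pair no gene names with regions.

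Values are the authors' normalized signal per region, whose summed total per library was 9248000 to 10960000 for H3K27ac and 1233000 to 1416000 for ATAC. The original read depth is unknown. Between 0.0158% and 2.29% of H3K27ac regions and between 2.36% and 7.31% of ATAC regions were at 0 in a library. The sparsest ATAC library was Fast GFP-positive replicate 2, with 7.31% at 0 and only 8 distinct values below 20. A set of 6 H3K27ac libraries stood apart, made up of the GFP-positive and GFP-negative libraries numbered 1 of Fed, of Lep2 and of Lep24. The grouping comes from the values and not from a label, and none of the 6 is a Fast library.

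Sequences upstream of the annotated starts are shown for Bdnf start 1, Bdnf start 3 and the Ntrk2 start, because the strongest regions of both genes are described below by their place in the locus. The promoters come from RefSeq on GRCm38.p6, where Bdnf has 7 listed starts and Ntrk2 has 1. Each run is the 250 bases before the start on the plus strand, at chr2:109674450-109674699, chr2:109692186-109692435 and chr13:58806319-58806568 of GRCm38.p6. Capitals mark matches to a STAT motif (TTCNNNGAA), a CRE (TGACGTCA) or an E-box (CANNTG). All 3 patterns read the same on both strands, and no match overlapped another.
Bdnf start 1: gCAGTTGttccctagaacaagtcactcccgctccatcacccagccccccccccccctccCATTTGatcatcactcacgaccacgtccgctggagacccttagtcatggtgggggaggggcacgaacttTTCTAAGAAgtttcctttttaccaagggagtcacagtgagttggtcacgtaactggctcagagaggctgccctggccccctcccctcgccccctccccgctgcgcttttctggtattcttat
Bdnf start 3: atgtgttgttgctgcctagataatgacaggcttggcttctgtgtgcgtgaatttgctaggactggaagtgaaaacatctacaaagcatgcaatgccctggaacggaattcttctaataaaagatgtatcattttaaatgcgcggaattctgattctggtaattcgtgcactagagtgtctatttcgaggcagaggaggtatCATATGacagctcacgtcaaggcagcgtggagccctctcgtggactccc
Ntrk2 start: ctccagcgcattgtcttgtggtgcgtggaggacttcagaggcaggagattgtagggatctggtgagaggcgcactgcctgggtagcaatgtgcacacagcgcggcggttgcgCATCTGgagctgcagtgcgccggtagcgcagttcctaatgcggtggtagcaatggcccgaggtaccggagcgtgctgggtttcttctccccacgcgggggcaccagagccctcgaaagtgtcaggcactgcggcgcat

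The STAT pattern, of the kind bound by the STAT3 factor that the leptin receptor activates, had 1 match among the 8 promoters of both genes. It was TTCTAAGAA, with its first base 122 bases before Bdnf start 1, and 7.02% of the 32851 promoters in the same RefSeq table hold such a match in the same 250 bases. The full CRE, of the kind bound by CREB, was found in none of the 8 and in 1.55% of all promoters. E-boxes were found in 7 of the 8 and in 66.2% of all promoters. A match describes letters only. In GRCm38.p6, Bdnf start 2 lay 2.3 kb after start 1, and starts 3, 4 and 5 lay 17.7 kb, 18.3 kb and 19.7 kb after it. The files' regions are in mm9, no position was converted between builds, and no region was assigned to a promoter.

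H3K27ac at Bdnf was concentrated in 2 blocks. The first long region, number 2 along the window, was chr2:109511682-109520079 (mm9, 8398 bp) and had a mean signal of 301.8 over the 16 libraries, or 35.9 per kb. The second, number 4, was chr2:109531316-109538618 (7303 bp), with a mean signal of 213.5, or 29.2 per kb. These 2 regions held 56% and 39.7% of the summed H3K27ac signal of the window, and their starts lay 19.6 kb apart. In signal per kb both stood at percentile 92.2 or above among all H3K27ac regions. The other 3 regions were flanks of 338 to 1266 bp with mean signals between 3.96 and 12.7. The 5 regions together covered 17.9% of the Bdnf window.

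H3K27ac at Ntrk2 covered much more of the locus. Its 39 regions spanned 318 kb, or 83.6% of the window, 35 of them adjoined another region, and 10 were at least 10 kb long. The densest was region 3, chr13:58906743-58918660 (11918 bp), with 62.2 signal units per kb, at percentile 99.4 of all regions. The region with the highest mean signal was region 33, chr13:59148745-59202840 (54096 bp), at 1278 in total and 23.6 per kb. Region 37, near the far end of the window, was the next densest after region 3, at 33.9 per kb. That is also denser than the second Bdnf block. The 2 Bdnf blocks had no listed H3K27ac region for 10.9 kb between them.

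All 23 ATAC regions lay within an H3K27ac region of the same gene. H3K27ac regions covered 17.9% of the Bdnf and 83.6% of the Ntrk2 window, and the share of all ATAC regions within H3K27ac regions was not counted. At Bdnf, 1 ATAC region lay in the first H3K27ac block and 3 in the second. At Ntrk2, 6 lay in region 33, 4 in region 37 and 2 in region 3. The strongest Bdnf ATAC region was region 1, chr2:109517038-109518953 (1916 bp), with a mean signal of 37.4, and it held 54.7% of the summed ATAC signal of the window. The strongest Ntrk2 ATAC region was region 1, chr13:58907514-58910440 (2927 bp), in the dense H3K27ac block, with a mean signal of 103.2. Per kb, the highest were Bdnf region 4 (chr2:109534948-109535281) at 24.7 and Ntrk2 region 18 (chr13:59246632-59247666) at 46.4.

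**Figure D1:**
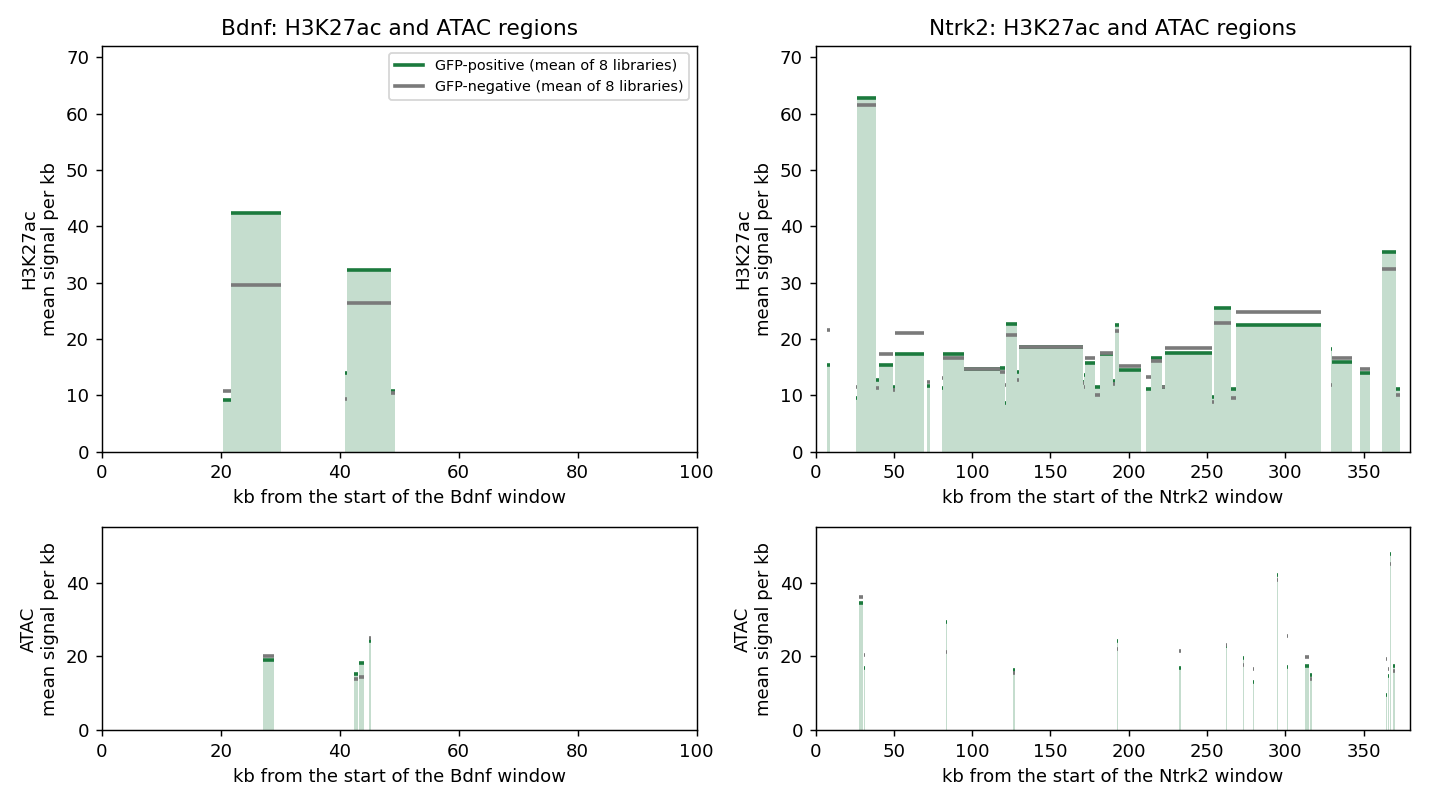
Mean normalized signal per kb of every H3K27ac region (top) and ATAC region (bottom) at Bdnf (left) and Ntrk2 (right), against distance in kb from the start of each window. Green lines (filled below) are means of 8 GFP-positive libraries and grey lines of 8 GFP-negative libraries, and both Bdnf H3K27ac blocks have the green line above the grey one.

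Whether chromatin at the ligand and the receptor differed between nuclei with and without the leptin receptor driver was examined first. For H3K27ac at the first Bdnf block, the GFP-positive libraries ranged from 236.5 to 447.9 (median 379.8) and the GFP-negative libraries from 164.9 to 306.9 (median 272.9). In Fed, the 2 GFP-positive libraries were at 318.6 and 365.8 and the GFP-negative ones at 165.7 and 292.4. In Fast they were at 393.7 and 419.7 against 301.4 and 281.2. The GFP-positive libraries were the higher in both of these treatments without overlap, and groups did not overlap at 33.4% of all H3K27ac regions tested in Fed and 58.4% in Fast. In Lep2 the GFP-positive libraries were at 236.5 and 447.9 against 164.9 and 306.9, and in Lep24 at 262.4 and 396.0 against 210.3 and 264.6. Here the groups overlapped, and in both treatments replicate 1 was the lower of each pair.

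Over the 4 treatments the first Bdnf block was 1.44-fold higher in GFP-positive nuclei, a log2 difference of 0.52 (SE 0.19, 95% interval 0.12 to 0.92). Its adjusted p was 0.098 (limma on log2 of signal plus 1, Benjamini-Hochberg over 113756 regions), so it did not pass the threshold of 0.05. The GFP-positive library was higher in 8 of 8 pairs that share a treatment and a replicate number. Here and below, the share of all regions with such a count of pairs was not determined, so these counts are description only. Within the 6 libraries that stood apart the log2 difference was 0.59 (SE 0.13, adjusted p = 0.00507 by limma), and within the other 10 it was 0.48 (SE 0.06, adjusted p = 2.37e-07 by limma). With the 6 libraries as a term in the fit of all 16 it was 0.52 (SE 0.08, adjusted p = 2.25e-05 by limma). In these fits, in that order, 4.1%, 32.4% and 26.6% of all H3K27ac regions passed. The split itself was taken from the values, and the fits within the 6 and within the other 10 were chosen after seeing the data. Of 29 alternatives run, 8 gave a call, among them quantile normalization (adjusted p = 0.0399 by limma) and the fit without Lep2 GFP-positive replicate 1 (adjusted p = 0.0337 by limma), and adjusted p ranged from 2.37e-07 to 0.224. In the authors' deposited table the column for GFP-positive against GFP-negative gives this region a log2 fold change of 0.559 and an FDR of 0.000264. That FDR was the only one under 0.05 for a Bdnf or Ntrk2 region in any comparison of that table. Other columns there cover leptin against SSS and leptin combined with the sort. The headers do not say which treatments the sort column covers, so it may not measure the mean over 4 treatments.

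The second Bdnf block had the same direction with a smaller size. The GFP-positive libraries ranged from 164.9 to 296.7 (median 246.2) and the GFP-negative libraries from 136.0 to 238.4 (median 192.2). The log2 difference was 0.28 (SE 0.16, 95% interval -0.06 to 0.63, adjusted p = 0.308 by limma), with the GFP-positive library higher in 8 of 8 pairs. The difference was 0.23 within the 6 libraries (adjusted p = 0.449 by limma) and 0.32 within the other 10, where it passed (adjusted p = 0.00176 by limma). With the 6 libraries as a term it also passed (adjusted p = 0.0118 by limma). Of all H3K27ac regions, 32.4% passed within the other 10 and 26.6% with the term. Of the 29 alternatives run, 4 called the second block, and adjusted p ranged from 0.000374 to 0.546 (limma). The log2 ratio of the first block to the second, a quantity chosen after the values were seen, was 0.59 ± 0.11 (SD, n = 8) in GFP-positive and 0.35 ± 0.16 (SD, n = 8) in GFP-negative libraries. It was the higher in the GFP-positive library in 7 of 8 pairs, by a mean of 0.24 (exact permutation test of the sorts within treatments, two-sided, p = 0.0185, where 0.0015 is the smallest p possible). The difference was 0.37 over the 3 pairs in the 6 libraries and 0.16 over the 5 pairs in the other 10. Since the ratio was picked from the values it tests, the p is no independent support.

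Counted over the gene, 0 of the 4 Bdnf H3K27ac regions tested passed, beside 9.22% of all H3K27ac regions (10489 of 113756). At an unadjusted p under 0.05 it was 1 of 4, beside 27662 of all regions. The remaining Bdnf region, number 3, fell in the lowest 10% of mean signal and was not tested. The Bdnf median was 0.27 on the log2 scale, beside 0.03 over all regions. Summed over the 5 regions, H3K27ac was 612.9 ± 119.9 (SD, n = 8) in GFP-positive and 464.0 ± 92.1 (SD, n = 8) in GFP-negative libraries, a 1.32-fold mean ratio that was above 1 in 8 of 8 pairs. In bulk nuclei, fewer nuclei carrying a mark and less signal per nucleus cannot be told apart.

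**Figure D2:**
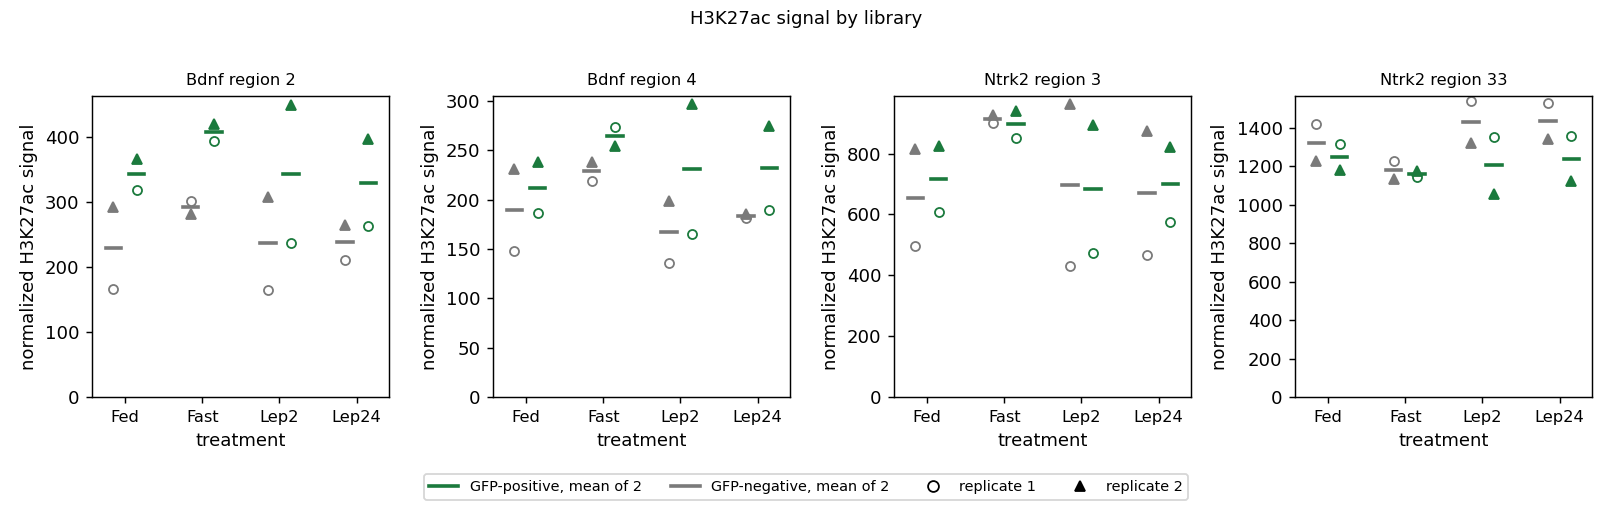
Normalized H3K27ac signal of each library (circles replicate 1, triangles replicate 2, lines the mean of 2) by treatment and sort for the 2 Bdnf blocks (regions 2 and 4), the dense Ntrk2 block (region 3) and the longest Ntrk2 region (region 33). Green is GFP-positive and grey GFP-negative; at region 3 the replicate 1 libraries of Fed, Lep2 and Lep24 sit at 430.1 to 608.2 and the other 10 at 813.4 to 961.8.

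Ntrk2 showed no sort difference in H3K27ac that passed. For the dense block, region 3, the GFP-positive libraries ranged from 474.8 to 939.1 (median 823.3) and the GFP-negative libraries from 430.1 to 961.8 (median 843.8). The log2 difference was 0.06 (SE 0.21, 95% interval -0.39 to 0.51, adjusted p = 0.892 by limma), and it was 0.25 within the 6 libraries and -0.05 within the other 10. In this block the 6 libraries lay between 430.1 and 608.2 and the other 10 between 813.4 and 961.8, with no overlap. The set of 6 was itself taken from the values, and the share of all regions without such overlap was not counted. Of the 10 regions at least 10 kb long, 8 had the higher mean in the 6 libraries, such as region 16 (chr13:59009887-59050737) at 914.1 against 667.8 in the other 10. The 2 with the lower mean were region 3 itself and region 31, at 238.6 against 288.7. How many regions of this length elsewhere had the higher mean in the 6 libraries was not counted, so this may not be particular to Ntrk2.

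Region 33, the longest Ntrk2 region, ranged from 1056 to 1356 (median 1179) in GFP-positive and from 1135 to 1540 (median 1332) in GFP-negative libraries. Its log2 difference was -0.14 (SE 0.09, adjusted p = 0.386 by limma), lower in GFP-positive in 7 of 8 pairs, and -0.15 and -0.14 within the 6 and the other 10 libraries. Region 7 (chr13:58930482-58949093), the 1 Ntrk2 region with an unadjusted p under 0.05, had a log2 difference of -0.28 (SE 0.10, adjusted p = 0.109 by limma) and was lower in 8 of 8 pairs. With the 6 libraries as a term both passed (adjusted p = 0.0139 for region 33 and 0.00408 for region 7 by limma), beside 26.6% of all regions. Within the other 10 libraries alone, 3 of 35 Ntrk2 regions and 2 of 4 Bdnf regions passed, beside 32.4% of all regions. Within the 6 alone it was 1 of 35 and 1 of 4, beside 4.1%.

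In all, 0 of 35 Ntrk2 H3K27ac regions tested passed, beside the same 9.22%, and 19 were higher and 16 lower in GFP-positive nuclei. The other 4 of the 39 were too low to be tested. The Ntrk2 median was 0.01 on the log2 scale. The sum over the 39 regions was 6354 ± 259.1 (SD, n = 8) in GFP-positive and 6540 ± 329 (SD, n = 8) in GFP-negative libraries, a mean log2 ratio of -0.04 with an SD of 0.07 over the pairs. The halfwidth of the 95% interval was 0.35 on the log2 scale for the median Ntrk2 region. Whether the Bdnf and Ntrk2 differences themselves differ was not tested.

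**Figure D3:**
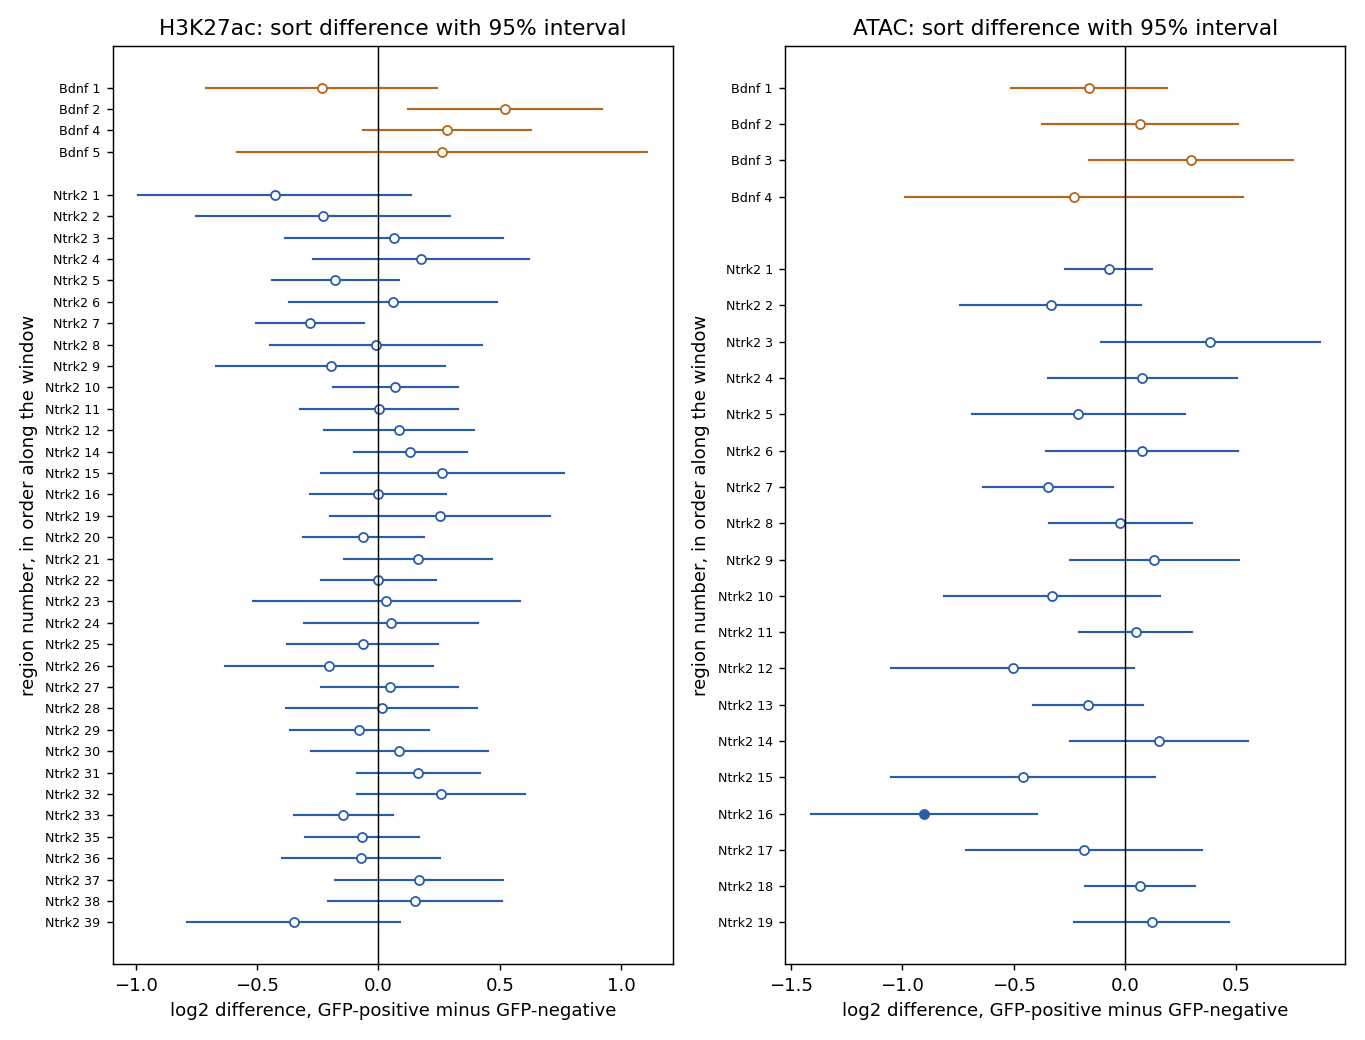
Log2 difference of GFP-positive minus GFP-negative with its 95% interval for the 39 H3K27ac regions (left) and 23 ATAC regions (right) that were tested, in order along each window, Bdnf in brown and Ntrk2 in blue. The 1 filled point, Ntrk2 ATAC region 16, has an adjusted p under 0.05.

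ATAC signal gave 1 region that passed between the sorts, at Ntrk2. Region 16, chr13:59244512-59245172 (661 bp), lies in H3K27ac region 37, near the far end of the window. Its GFP-positive libraries ranged from 3.0 to 8.7 (median 6.7) and its GFP-negative libraries from 6.8 to 22.2 (median 12.3), so the sorts overlapped only between 6.8 and 8.7. It was 1.87-fold lower in GFP-positive nuclei, a log2 difference of -0.90 (SE 0.25, 95% interval -1.41 to -0.40, adjusted p = 0.0218 by limma), and lower in 7 of 8 pairs. The exception was the Fast pair numbered 1, at 8.7 in GFP-positive and 7.0 in GFP-negative.

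Signal at this region was low, with a mean of 9.54 over the 16 libraries. Without any 1 of 6 libraries, Fed GFP-negative replicate 2, Fed GFP-positive replicate 1, Fast GFP-negative replicate 2, Lep2 GFP-negative replicate 2, Lep24 GFP-negative replicate 2 or Lep24 GFP-positive replicate 1, it no longer passed (adjusted p between 0.0537 and 0.0726 by limma). The authors' deposited table gives it a log2 fold change of -1.03 and an FDR of 0.462 in the same sort column, whose treatments are not named. The H3K27ac region around it had a log2 difference of 0.17 between the sorts, which did not pass. That difference was 0.45 within the 6 libraries that stood apart, where it passed (adjusted p = 0.0328 by limma) beside 4.1% of all H3K27ac regions. Within the other 10 it was -0.00 (adjusted p = 0.992 by limma).

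The strongest Ntrk2 ATAC region, in the dense block, ranged from 83.6 to 116.5 (median 98.4) in GFP-positive and from 90.7 to 120.9 (median 105.8) in GFP-negative libraries. Its log2 difference was -0.07 (SE 0.10, adjusted p = 0.682 by limma). Region 18, the highest per kb, differed by 0.07 (SE 0.12, adjusted p = 0.781 by limma). Of the 19 Ntrk2 regions, 8 were higher and 11 lower, and 1 passed, beside 9.79% of all ATAC regions (4287 of 43775).

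At Bdnf, 0 of 4 ATAC regions passed between the sorts. Region 1, within the first H3K27ac block, ranged from 10.7 to 49.8 (median 38.6) in GFP-positive and from 29.7 to 48.7 (median 38.9) in GFP-negative libraries. Its log2 difference was -0.16 (SE 0.17, 95% interval -0.51 to 0.19, adjusted p = 0.602 by limma). The lowest value, 10.7, was Fast GFP-positive replicate 2, and without that library the difference was 0.03. Region 4, the highest per kb, differed by -0.23 (SE 0.37, adjusted p = 0.75 by limma), and by 0.23 without the same library, in which it was listed at 0. In the first block the GFP-positive library had the higher H3K27ac signal in every pair, and the ATAC region inside it was higher in 3 of 8. Whether the sort difference differs between the assays was not tested.

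The sorts were next compared within each treatment, where 2 libraries face 2. No Bdnf or Ntrk2 region passed in any treatment. For H3K27ac the share of all regions that passed was 0.103% in Fast and 0% in Fed, Lep2 and Lep24. For ATAC it was 0.016% in Fed, 0.0548% in Fast, 0.199% in Lep2 and 0% in Lep24. The log2 difference at the first Bdnf H3K27ac block was 0.63 in Fed, 0.48 in Fast, 0.53 in Lep2 and 0.45 in Lep24, each with an SE of 0.37. The 4 values lay within 1 SE of each other.

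Ntrk2 ATAC region 7, chr13:59112241-59113601, had the smallest adjusted p of these comparisons. In Lep2 its GFP-positive libraries were at 21.5 and 11.6 and its GFP-negative libraries at 36.8 and 36.2, without overlap, as at 42.6% of all ATAC regions tested in Lep2. The log2 difference was -1.16 (SE 0.28, adjusted p = 0.0833 by limma). In the other treatments the difference was 0.04 in Fed, 0.01 in Fast and -0.28 in Lep24, and whether it differed from that in Fast is given with the leptin comparisons.

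Fasting and leptin were then compared within each sort. No Bdnf or Ntrk2 region passed in any of the 9 comparisons of either assay, and neither did any other region, so the share of all regions that passed was 0% throughout. The smallest adjusted p among the members was 0.714 for H3K27ac and 0.497 for ATAC by limma. Without adjustment, 0 of 4 Bdnf and 0 of 35 Ntrk2 H3K27ac regions had p under 0.05 for fasting in GFP-positive nuclei, beside 2178 of all regions. For ATAC in GFP-positive nuclei it was 3 of 4 Bdnf regions for Lep24 against Fast, beside 2934 of all 43775 regions, and 2 of 4 for Lep2 against Fast, beside 3434. At Ntrk2 it was 4 of 19 ATAC regions for the Lep2 change between the sorts, beside 1744. All 3 of these comparisons use Fast GFP-positive replicate 2, the sparse library. With 2 libraries in each group, the halfwidth of the 95% interval for such a change was 0.87 (log2) at the median Bdnf and 0.69 at the median Ntrk2 H3K27ac region.

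Bdnf ATAC region 1 had the smallest p of the 4 Bdnf ATAC regions in 7 of the 9 comparisons. Among GFP-positive nuclei it was at 49.8 and 40.2 in Fed, 33.7 and 10.7 in Fast, 34.3 and 41.5 in Lep2 and 37.0 and 43.5 in Lep24. Among GFP-negative nuclei it was at 32.7 and 40.9 in Fed, 48.7 and 43.3 in Fast, 36.8 and 29.7 in Lep2 and 46.2 and 30.0 in Lep24. The Fast GFP-positive libraries were the lowest of the GFP-positive ones, and 1 of them was far below the other.

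The log2 change of Bdnf ATAC region 1 in GFP-positive nuclei was -1.18 for Fast against Fed (SE 0.34, adjusted p = 0.594 by limma). For Lep2 against Fast it was 0.94 (SE 0.34, adjusted p = 0.514 by limma) and for Lep24 against Fast 1.03 (SE 0.34, adjusted p = 0.617 by limma), and these share the Fast libraries. In GFP-negative nuclei Lep2 against Fast gave -0.46. The difference of the fasting change between the sorts was -1.50 (SE 0.48, adjusted p = 1 by limma).

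These values rest on the sparse library, Fast GFP-positive replicate 2. With that library as the lone Fast GFP-positive one, assumed to vary like the other groups, the changes at Bdnf ATAC region 1 became -1.97, 1.73 and 1.81 and passed (adjusted p = 0.000354, 0.00115 and 0.00069 by limma), as did those of region 4. The share of all ATAC regions that passed in the same 3 comparisons was then 3.16%, 3.41% and 3.56%. With replicate 1 as the lone Fast GFP-positive library, neither region passed in any of them. The part of the sparse library in the result was not tested beyond leaving it out.

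**Figure D4:**
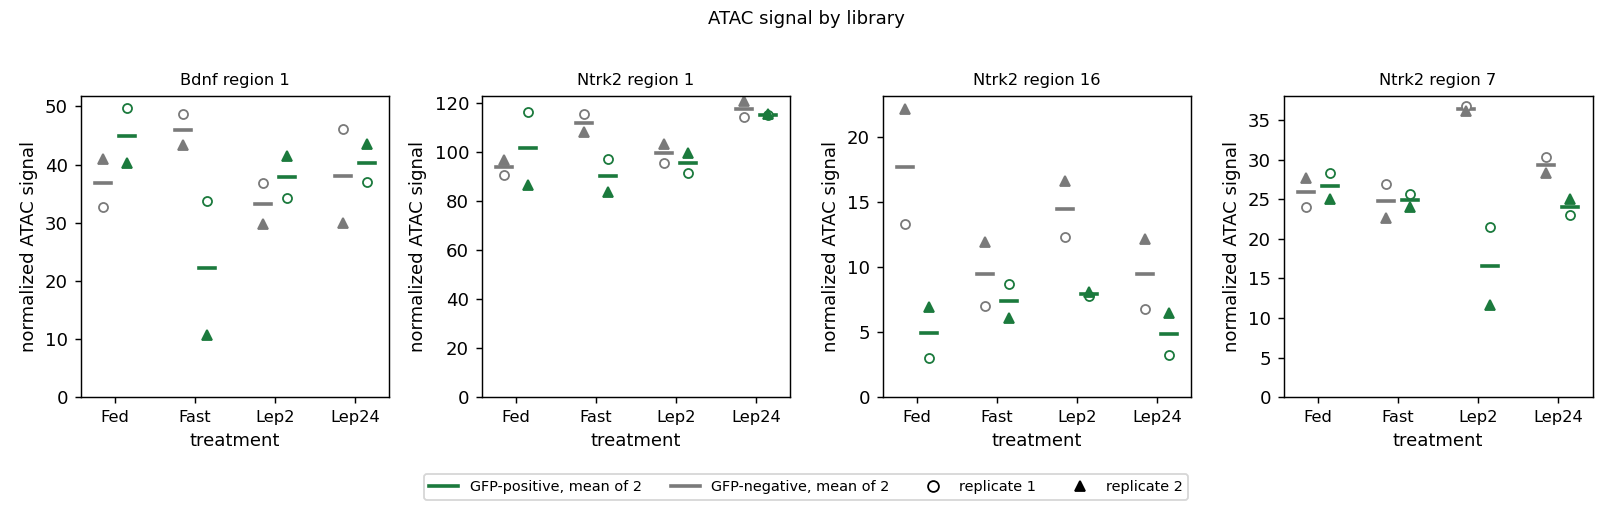
Normalized ATAC signal of each library (circles replicate 1, triangles replicate 2, lines the mean of 2) by treatment and sort, green for GFP-positive and grey for GFP-negative, at Bdnf region 1 and Ntrk2 regions 1, 16 and 7. Fast GFP-positive replicate 2 is the lowest point at Bdnf region 1 (10.7), and the Lep2 GFP-positive points at Ntrk2 region 7 (21.5 and 11.6) are below both GFP-negative ones.

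At Ntrk2 ATAC, region 2 (chr13:58911010-58911821), also in the dense block, had the smallest p for both leptin comparisons in GFP-positive nuclei. It was at 6.5 and 10.7 in Fast, 23.2 and 16.9 in Lep2 and 13.3 and 21.1 in Lep24, and neither leptin group overlapped Fast. In each treatment comparison within a sort, the groups of 2 did not overlap at 28.8% to 30.2% of all ATAC regions tested. The log2 change was 1.15 for Lep2 (SE 0.39, adjusted p = 0.497 by limma) and 0.92 for Lep24 (SE 0.39, adjusted p = 0.701 by limma). In Fed GFP-positive nuclei it was at 11.5 and 6.9, overlapping Fast. Region 3 (chr13:58963481-58963808) was at 12.4 and 12.5 in Fed and 3.2 and 8.4 in Fast GFP-positive nuclei, a log2 change of -1.10 (SE 0.48, adjusted p = 0.718 by limma). The Lep2 change at region 7 differed between the sorts by -1.16 (SE 0.40, adjusted p = 1 by limma).

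In GFP-negative nuclei the smallest p among Ntrk2 ATAC regions belonged to region 16 for Fast against Fed, at 13.3 and 22.2 in Fed and 7.0 and 11.9 in Fast (log2 change -0.84, SE 0.49). For Lep2 against Fast it was region 14, at 19.3 and 15.8 in Fast and 13.2 and 6.2 in Lep2 (-0.87, SE 0.39). For Lep24 against Fast it was region 15, at 7.0 and 8.8 in Fast and 4.6 and 3.2 in Lep24 (-0.87, SE 0.57). These regions were picked by their p, and adjusted p was 1 by limma for each. Between the sorts the smallest p for both Fast against Fed (-1.58, SE 0.68) and Lep24 against Fast (1.34, SE 0.68) was that of region 3, also with adjusted p = 1 by limma.

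For H3K27ac at Bdnf the smallest p in each treatment comparison fell on the short flanks and not on the 2 blocks. Region 5 (chr2:109538619-109539242, mean signal 6.58) had the smallest in GFP-negative nuclei. There it was at 11.6 and 4.4 in Fed, 5.8 and 0.0 in Fast, 10.4 and 5.8 in Lep2 and 9.5 and 4.5 in Lep24. Its log2 changes were -1.66 for Fast against Fed, 1.76 for Lep2 and 1.54 for Lep24 (SE 0.79 each, adjusted p = 0.716, 0.722 and 0.714 by limma). All 3 changes use Fast GFP-negative replicate 2, in which the region was listed at 0. Region 1 (chr2:109510416-109511681) had the smallest in GFP-positive nuclei, at 13.6 and 12.1 in Fed, 8.5 and 6.9 in Fast, 21.1 and 7.4 in Lep2 and 10.1 and 13.3 in Lep24. Its log2 changes were -0.68, 0.65 and 0.54 (SE 0.44 each), with adjusted p of at least 0.923 by limma.

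For H3K27ac at Ntrk2, region 39 (chr13:59259755-59262126), which crosses the end of the window, had the smallest p for Lep2 against Fast in GFP-negative nuclei. It was at 16.1 and 22.7 in Fast and 56.5 and 35.8 in Lep2, a log2 change of 1.19 (SE 0.41, adjusted p = 0.722 by limma). Region 12 was at 33.2 and 38.8 in Fed and 48.2 and 70.0 in Fast GFP-negative nuclei (0.68, SE 0.29). Region 14 was at 165.7 and 176.2 in Fast and 138.8 and 116.4 in Lep24 GFP-negative nuclei (-0.42, SE 0.22). In GFP-positive nuclei region 28 was at 20.0 and 12.1 in Fed and 25.4 and 29.3 in Fast (0.77, SE 0.36). Region 38 was at 35.5 and 33.7 in Fast and 24.6 and 17.6 in Lep2 (-0.71, SE 0.33), and region 4 at 12.4 and 14.3 in Fast and 19.3 and 27.1 in Lep24 (0.74, SE 0.41). These 6 regions were picked by their p, and none passed, with adjusted p of at least 0.714 by limma. Groups of 2 did not overlap at any of the 6, nor at 31.1% to 47% of all H3K27ac regions tested in these comparisons. Between the sorts the smallest p fell on region 28 for Fast against Fed (1.33, SE 0.52), region 27 for Lep2 against Fast (-0.79, SE 0.37) and region 30 for Lep24 against Fast (-0.91, SE 0.48), all with adjusted p = 1 by limma.

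The summed signal ordered the groups as follows. Bdnf H3K27ac was highest in Fast GFP-positive libraries, at 690.8 ± 7.5 (SD, n = 2), then in Lep2 at 599.0 ± 233.8, Lep24 at 583.8 ± 157.9 and Fed at 578.0 ± 66.0 GFP-positive libraries. The GFP-negative sums were 536.4 ± 7.43 in Fast, 449.4 ± 34.4 in Lep24, 445.5 ± 147.4 in Fed and 425.1 ± 147.7 in Lep2. Within each sort, the neighbours after Fast did not differ beyond their spread. Fast holds none of the 6 libraries that stood apart while every other group holds 1, so the place of Fast and that split cannot be told apart here. Among the replicate 2 libraries of Fed, Lep2 and Lep24 the GFP-positive sums were 624.7, 764.3 and 695.4, beside Fast values of 685.5 and 696.1. The GFP-negative sums were 549.7, 529.5 and 473.7, beside Fast values of 541.6 and 531.1.

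Ntrk2 H3K27ac sums lay between 6252 ± 115.5 (Fast GFP-positive) and 6915 ± 168.7 (Lep2 GFP-negative), with SDs of 26.0 to 483.4. Ntrk2 ATAC sums lay between 395.9 ± 0.354 in Fast GFP-positive and 463.7 ± 57.6 in Lep24 GFP-negative libraries. Bdnf ATAC sums lay between 56.2 ± 24.4 in Fast GFP-positive and 76.9 ± 6.08 in Fast GFP-negative libraries. Both genes had their lowest mean ATAC sum in Fast GFP-positive, the group that holds the sparse library. For Bdnf the sums there were 73.4 in replicate 1 and 38.9 in replicate 2, the sparse one. For Ntrk2 they were 396.2 and 395.7, and Fed GFP-negative replicate 1 was lower at 382.3.

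Regions elsewhere in the genome whose pattern was most like that of the summed signal were found by Pearson's r over the 8 group means, as a description. For Bdnf H3K27ac the 3 most alike were chr16:95919087-95931092, chr8:111938689-111944579 and chr10:68994158-69012699 (mm9), each with r of 0.995. For Ntrk2 H3K27ac the closest was chr17:32357939-32377354 with r of 0.981. For ATAC the closest were chr1:82835511-82836908 for Bdnf (0.983) and chr14:100343507-100344149 for Ntrk2 (0.971). These r values were the highest of all regions searched, and the 8 means share libraries and the library differences described above.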

How the data were processed

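Each assay has 1 deposited table of regions which, per the file headers, gives normalized signal per library (headed normalized counts), the authors' variance-stabilized values (treated here as a score), and their own comparisons as log2 fold changes with FDR (p-value adjusted) columns. Per the submitters' processing notes the build was mm9 and the tools named include Bowtie2 2.2.6, MACS2 and DESeq2 1.16.1; the role of each and the normalization method are not given in the sources used here. The ChIP columns carry no antibody name and were matched to the H3K27ac titles. All per-sample columns were used (0 left out). RNA and input samples were not analysed here.

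Regions in the lowest 10% of mean signal were left out, leaving 113756 H3K27ac and 43775 ATAC regions. log2(signal + 1) was fitted with limma 3.58.1 (R 4.3.3), 1 mean per group, trended empirical Bayes, Benjamini-Hochberg adjustment over all regions of a comparison, two-sided. Regions were named by a rule: highest mean, highest per kb, called between sorts, and smallest p in each treatment comparison; Ntrk2 H3K27ac regions 7, 16 and 37 and Bdnf H3K27ac region 4 were added after their values were seen. The fit was tested on simulated data. The windows, members and lists were chosen with earlier results of these data known. Gene markers and the pathway list could not be read because no mm9 annotation was used here.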

Additional observations from a re-analysis of the deposited data

How the results depend on the processing

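For H3K27ac between the sorts, Bdnf had 0 regions called, and 1 with quantile normalization or with the replicate number as a replicate block. It had 2 with the pair of libraries as a replicate block, with the 6 libraries as a term, and in the other 10 libraries under either fit, and 1 in only the 6. Ntrk2 had 0, and 1 with the replicate number as a replicate block, 2 with the pair of libraries as a replicate block, 2 with the 6 libraries as a term, 5 in only the other 10 with 1 mean per group, 3 there with treatment and sort as terms, and 1 in only the 6. Within treatments, Bdnf H3K27ac calls went from 0 to 1 with the 6 libraries as a term and to 5 in only the other 10, and Ntrk2 from 0 to 5 in only the other 10. Fits in only the 6 or with treatment and sort as terms were chosen after seeing the data.

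Ntrk2 ATAC calls between the sorts went from 1 to 0 at an adjusted p of 0.01. Within treatments they went from 0 to 1 with the replicate number as a replicate block. Same-treatment deviations of replicates correlated at 0.01 to 0.495 (H3K27ac) and 0.038 to 0.141 (ATAC). The lowest H3K27ac value was that of Fast and the other treatments had 0.367 or above. Deviations in different treatments correlated at -0.163 to 0.55 (H3K27ac) and 0.024 to 0.176 (ATAC). The samples were taken to share only a number, so the pairs counted above are pairs by treatment and number alone. Bdnf H3K27ac region 2 had adjusted p = 0.00705 with the replicate number and 9.38e-06 with the pair of libraries as a replicate block, and region 4 had 0.101 and 0.0106 (limma). Ntrk2 H3K27ac region 33 passed with the pair of libraries as a replicate block (log2 difference -0.14, adjusted p = 0.0251 by limma). No count of calls at either gene changed with a block beyond those given in this section.

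Leaving out each library in turn gave 0 to 1 Bdnf H3K27ac and 0 to 2 Ntrk2 ATAC regions between the sorts. It gave 0 to 2 Bdnf and 0 to 1 Ntrk2 ATAC calls within treatments, and 0 to 10 Bdnf ATAC calls over the treatment comparisons. The mean log2 ratio of the Ntrk2 H3K27ac sum went from -0.04 to 0.03 when each library was divided by its total.

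Signs reversed for differences near 0. Ntrk2 H3K27ac region 3 between the sorts was -0.05 in only the other 10 libraries under either fit, and from -0.08 to 0.21 when single libraries were left out. Ntrk2 ATAC region 1 became 0.01 with quantile normalization. Without Fast GFP-positive replicate 2, Bdnf ATAC region 1 became 0.03 and region 4 0.23, the highest of ranges that began at -0.36 and -0.69. Bdnf H3K27ac region 1 for Lep2 against Fast in GFP-positive nuclei was -0.04 in only the other 10 libraries and ranged from -0.04 to 1.35 when single libraries were left out. Region 5 for the same change between the sorts ranged from -2.69 to 0.08 in the same way. The causes were not tested. Whole reads could not be recovered from the normalized signal, so a count test was not run.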
